A study of Rattus norvegicus with 18 samples.

Results

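The genes described here are 52 cell cycle and DNA replication genes, taken as a list of 30 genes of mitosis and 22 of S phase and its entry, in the liver of rats given diethylnitrosamine. Members were found by gene symbol or by an older symbol, so that Cdk1, for example, is the probe set deposited as Cdc2a. Of the 52 genes, 49 were named on the array, with 67 probe sets among them, against 13900 genes named on the array in all. Tpx2, Cenpf and Cdc6 were not found by symbol, title or accession and are not analysed here.

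Liver was sampled from normal Sprague-Dawley rats at 0 h and from rats given diethylnitrosamine, a nitrosamine that damages DNA after activation in the liver and produces liver tumours, for 5, 8, 12, 16 or 18 weeks. RNA from the right lobe was hybridised to Affymetrix rat expression arrays, 3 arrays for each of the 6 groups. Within each group the replicates are named as technical in the labels, so every p value measures the spread between arrays, in which animals may play no part. The normal samples come from the start alone and every animal, treated or normal, is labelled 12-week-old, so age and time on treatment cannot be told apart, and the sources used here do not give dose or sex.

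Dividing cells pass through G1, S phase and mitosis in turn. Cyclin D and E kinases release E2F factors that switch on genes for origin licensing, deoxynucleotide supply and the replication fork. Later in the cycle a second wave, driven by the MuvB, B-MYB and FOXM1 factors, switches on the cyclin B and CDK1 kinase, the spindle kinesins, the chromosomal passenger complex and the machinery of cytokinesis. Hepatocytes of the adult liver rest outside the cycle and re-enter it after loss of tissue or injury. In bulk liver RNA, a larger share of cycling cells and more transcript per cycling cell cannot be told apart.

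Promoter sequences are shown for 6 members because the mitosis and S phase genes differ in the motifs known for these waves. The motifs searched were the cell cycle homology region (CHR), TTTGAA, the CCAAT box, and 4 E2F sites, TTTGGCGC, TTTCCCGC, TTTCGCGC and TTTGCCGC, all on both strands of RefSeq promoters (GRCr8, 250 bases before to 50 bases after the gene start). The 6 were chosen after the matches were seen. Capitals mark matches, reverse strand matches of the CCAAT box appearing as ATTGG, and every sequence runs 5′ to 3′ along the gene. The first 3 belong to mitosis genes, Cdk1 (chr20:19265043-19265342, plus strand), the kinase that starts mitosis, Cdc20 (chr5:137255750-137256049, minus strand), the activator of the anaphase-promoting complex (APC/C), and Mki67 (chr1:199952544-199952843, minus strand), which coats mitotic chromosomes.
Cdk1: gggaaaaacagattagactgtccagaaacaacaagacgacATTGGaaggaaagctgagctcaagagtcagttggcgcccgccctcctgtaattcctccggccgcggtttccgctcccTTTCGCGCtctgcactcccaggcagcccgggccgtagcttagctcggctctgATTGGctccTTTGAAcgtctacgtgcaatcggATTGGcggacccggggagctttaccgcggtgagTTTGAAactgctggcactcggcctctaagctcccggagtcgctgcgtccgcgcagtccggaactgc
Cdc20: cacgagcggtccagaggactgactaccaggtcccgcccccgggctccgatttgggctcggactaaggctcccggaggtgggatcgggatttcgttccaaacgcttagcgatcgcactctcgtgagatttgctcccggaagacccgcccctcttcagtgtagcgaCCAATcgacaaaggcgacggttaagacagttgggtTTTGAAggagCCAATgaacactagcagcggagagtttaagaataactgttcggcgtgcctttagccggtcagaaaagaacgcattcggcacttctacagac
Mki67: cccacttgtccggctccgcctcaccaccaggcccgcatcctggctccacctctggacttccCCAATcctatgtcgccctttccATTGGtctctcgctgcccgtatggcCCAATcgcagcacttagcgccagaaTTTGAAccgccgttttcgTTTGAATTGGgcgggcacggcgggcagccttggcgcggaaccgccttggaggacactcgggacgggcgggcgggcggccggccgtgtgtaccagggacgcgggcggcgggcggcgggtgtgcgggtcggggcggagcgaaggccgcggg
The other 3 belong to subunits of the MCM helicase that unwinds replication origins, Mcm2 (chr4:122918045-122918344, minus strand), Mcm3 (chr9:30733697-30733996, minus strand) and Mcm5 (chr19:13488563-13488862, plus strand).
Mcm2: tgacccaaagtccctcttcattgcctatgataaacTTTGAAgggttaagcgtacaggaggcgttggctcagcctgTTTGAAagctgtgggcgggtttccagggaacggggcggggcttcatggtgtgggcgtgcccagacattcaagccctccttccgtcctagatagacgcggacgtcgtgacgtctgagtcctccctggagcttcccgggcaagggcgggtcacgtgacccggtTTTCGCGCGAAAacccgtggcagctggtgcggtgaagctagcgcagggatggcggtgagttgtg
Mcm3: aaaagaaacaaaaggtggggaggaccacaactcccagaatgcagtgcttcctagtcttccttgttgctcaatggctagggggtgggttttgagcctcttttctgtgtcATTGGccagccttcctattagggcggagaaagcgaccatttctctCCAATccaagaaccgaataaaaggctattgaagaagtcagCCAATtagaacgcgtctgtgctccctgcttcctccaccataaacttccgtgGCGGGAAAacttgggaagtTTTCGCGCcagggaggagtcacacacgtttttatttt
Mcm5: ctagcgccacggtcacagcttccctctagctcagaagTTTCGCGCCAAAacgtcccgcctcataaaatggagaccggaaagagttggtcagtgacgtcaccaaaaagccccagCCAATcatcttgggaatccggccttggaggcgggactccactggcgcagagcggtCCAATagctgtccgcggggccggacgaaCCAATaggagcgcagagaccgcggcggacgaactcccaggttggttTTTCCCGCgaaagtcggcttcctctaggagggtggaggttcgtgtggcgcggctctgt
In Mki67 the CHR match that starts 99 bases before the gene start shares bases with a reverse CCAAT match. Opposite-strand E2F matches share bases in Mcm2 and in Mcm5.

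Of the promoters in the table, 24 belonged to the 30 mitosis genes and 16 to the 22 S phase genes. A CHR match was present in 17 of the 24 mitosis promoters (70.8%) and in 1 of the 16 S phase promoters (6.25%), that of Mcm2, against 18.1% of all 27457 promoters. The CCAAT box was present in 19 mitosis promoters (79.2%) and 9 S phase promoters (56.2%), against 37.7% of all promoters. Both together were found in 16 mitosis promoters (66.7%) and 0 S phase promoters, against 7.25% of all. An E2F match ran the other way, with 1 mitosis promoter (4.17%), that of Cdk1, and 10 S phase promoters (62.5%), against 2.25% of all. A further list of mitosis genes outside the 52 had CHR matches in 65.1% and E2F matches in 6.98% of 43 promoters, and a further list of replication genes in 17.1% and 34.3% of 35. These shares are a description of the letters in the windows, with no test of binding.

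**Figure D1:**
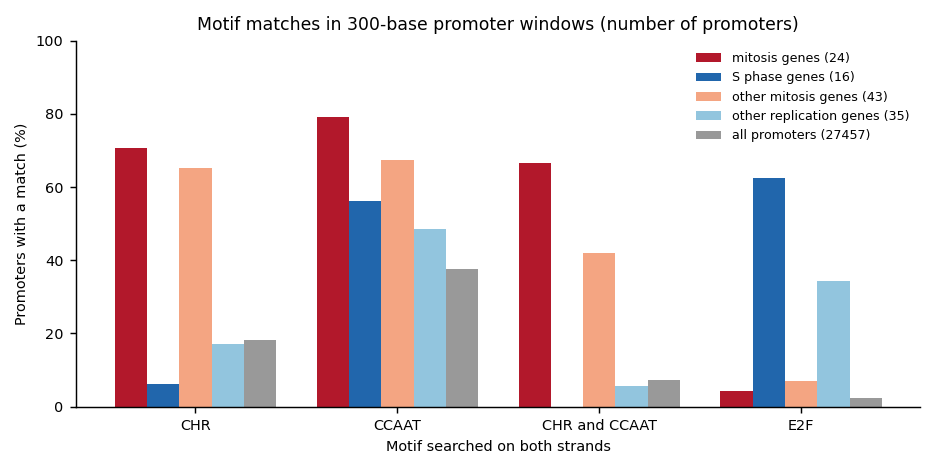
Share of 300-base promoter windows (y axis, percent) with a match to each motif on either strand (x axis), for the mitosis and S phase genes, the further lists of mitosis and replication genes, and all promoters. CHR matches reached 70.8% of mitosis promoters and E2F matches 62.5% of S phase promoters, against 18.1% and 2.25% of all promoters.

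Signals are the deposited array values on a linear scale, and changes are differences of log2(signal + 16) from a fit in limma of all 6 groups over 10451 genes, each given with its SE (n = 3 arrays per group). A gene was called when its Benjamini-Hochberg adjusted p was under 0.05 and its fold change at least 2. Of the 49 named members 47 had a probe set above the filter on low signals (87.5 on average over the arrays), 26 of mitosis and 21 of S phase. The 2 left out were mitotic checkpoint kinases just below it, Bub1b at 86.7 and Ttk at 86.5, and the next member above it was Cdca8 at 119. In normal liver 8 of the 26 mitosis genes and 3 of the 21 S phase genes lay below 87.5 and passed through the treated groups, so their changes depend on the pseudocount of 16 and counts are also given without them. Arrays correlated at 0.967 to 0.979 within groups and 0.909 to 0.972 between groups over all probe sets, which are not independent replicates. The Gapdh 3'/5' ratio, a measure of transcript shortening, was 2.12 ± 0.0521 at 8 weeks and 1.12 ± 0.0599 in normal liver (SD, n = 3), and 1.235 to 1.475 at the other times. The median change of all tested genes was 0.04, 0.12, 0.15, 0.16 and 0.11 from the earliest to the latest time as deposited, and -0.06, 0.01, -0.23, -0.31 and -0.07 when every array was centred on its median, so small changes below are read relative to it.

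Mitosis genes rose early and stayed high, while S phase genes moved less. Of the 26 mitosis genes, 19 were called higher after 5 weeks than in normal liver, 22 after 8, 25 after 12, 25 after 16 and 24 after 18 weeks. Of the 21 S phase genes, 5, 7, 8, 12 and 14 were called higher at the same times. Among all genes tested 4.47%, 7.31%, 12.1%, 14.5% and 11% were called higher, in the same order. The median log2 change was 1.25, 1.61, 1.87, 2.05 and 1.80 for mitosis genes and 0.50, 0.67, 0.83, 1.05 and 1.14 for S phase genes. The S phase medians depended on the scaling and were 0.40, 0.56, 0.44, 0.58 and 0.96 with median centring and 0.42, 0.52, 0.67, 0.73 and 1.01 with quantile normalization. The mitosis medians were 1.15, 1.50, 1.49, 1.58 and 1.62 with median centring and 1.16, 1.45, 1.57, 1.69 and 1.61 with quantile normalization. Prim1 at 8 weeks was the only member called lower, against 1.61%, 3.12%, 4.43%, 5.6% and 4.41% of all genes from 5 to 18 weeks.

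Every treated array lay above every normal array for 25, 26, 26, 26 and 26 of the 26 mitosis genes and for 16, 17, 18, 20 and 20 of the 21 S phase genes from 5 to 18 weeks, against 30.6%, 39.1%, 42.3%, 43.8% and 40.4% of all genes.

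The members above 87.5 in normal liver itself gave the same order. Of 18 such mitosis genes 11, 14, 17, 17 and 16 were called higher from 5 to 18 weeks, with medians of 1.07, 1.42, 1.60, 1.72 and 1.52. Of 18 such S phase genes 2, 4, 5, 9 and 11 were called higher, with medians of 0.46, 0.50, 0.68, 0.97 and 1.08. Over all 21 S phase genes the count depended on the scaling between arrays. At 16 weeks it was 7 with quantile normalization and 5 with median centring, against 12 as deposited, and at 18 weeks 9 with median centring, against 14 as deposited. The 5 treated groups share the same 3 normal arrays, so these counts are not independent of each other.

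**Figure D2:**
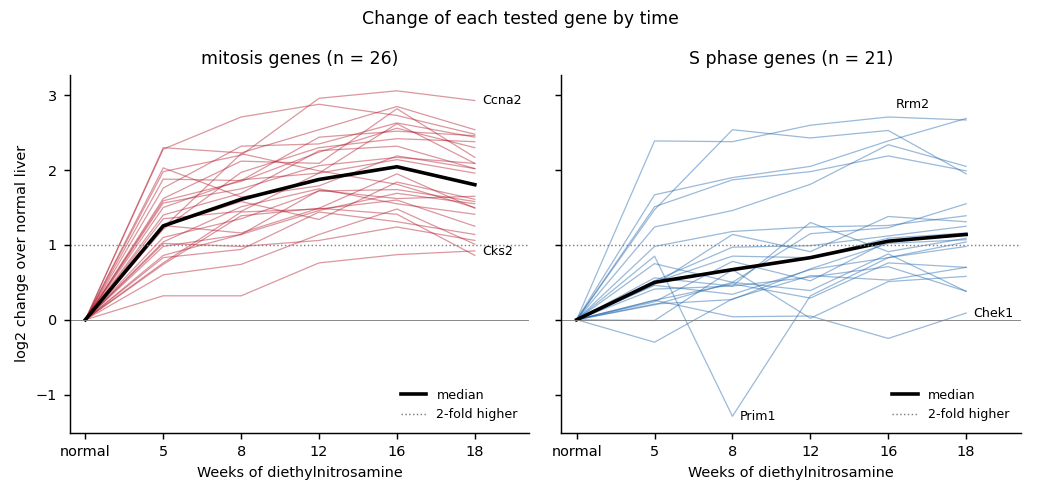
log2 change over normal liver (y axis) of each tested gene (thin lines) by weeks of diethylnitrosamine (x axis, evenly spaced), for 26 mitosis genes and 21 S phase genes, with the median of each group (thick line). The mitosis median reached 1.25 at 5 weeks and 2.05 at 16 weeks, while the S phase median reached 0.50 and 1.05.

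Marker genes of other liver cell types moved over the same times, and their part in the results was not tested. The summed signal of 5 bile duct and progenitor markers was 1460 to 1540 on normal arrays, 2190 to 2400 after 5, 2410 to 2510 after 8, 9970 to 10400 after 12, 13100 to 14300 after 16 and 10400 to 10800 after 18 weeks. All 5 were called higher at 12, 16 and 18 weeks and 3 at 8 weeks, while at 5 weeks limma called 0 of 5, with 3 at an unadjusted p under 0.05. Of 7 stellate cell and myofibroblast markers 3, 3, 5, 7 and 4 were called higher from 5 to 18 weeks, and their sum was 4630 to 4710 in normal liver, 9750 to 10100 at 5 weeks and 19400 to 19800 at 16 weeks. The hepatocyte markers summed to 114000 to 152000 on treated arrays and 167000 to 190000 on normal arrays, with Hnf4a called lower at 5, 8 and 16 weeks and Tat at 12 weeks. The 7 lymphocyte markers tested summed to 2190 to 3890 in treated liver and 2010 to 2190 in normal liver, the highest at 16 weeks. None of the 7 was called at any time, although all 7 had a change above 0 at 16 weeks. Ptprc made up a large part of the sum, with mean signals of 1030 in normal liver and 2020 at 16 weeks. Macrophage marker sums were 12500 to 23100 in treated liver and 22500 to 23300 in normal liver, and 2 of 7 were called lower at 16 weeks, Clec4f and Cd5l. These 2 held most of the normal sum, with mean signals of 7190 and 10200. Of the 7 markers 2, 1, 2, 4 and 2 had a change above 0 from 5 to 18 weeks. The median change was -0.20, -0.17, -0.31, 0.18 and -0.21, so the sum does not stand for the list. The 6 endothelial markers summed to 5770 to 10500 in treated liver, lowest at 18 weeks, and 8120 to 8780 in normal liver. Of these Kdr was called lower at 12, 16 and 18 weeks, and Stab2 lower and Vwf higher at 16 weeks. Lyve1, Kdr and Stab2 held most of the normal sum, with mean signals of 3700, 2550 and 1180. Of the 6 markers 4, 5, 4, 3 and 3 had a change above 0 from 5 to 18 weeks, so this sum does not stand for its list either. The 3 erythroid markers tested summed to 8950 to 9520 at 12 weeks and 26200 to 29300 in normal liver, with Hbb called lower at 12, 16 and 18 weeks and Slc4a1 at 12 weeks. No marker of these lists was at 0 on any array, the lowest signal being 3.11 for a bile duct marker, and Krt7, Sox9, Marco, Cd2, Cd79a and Cd79b were among the markers not tested.

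Among the proteins of the mitotic chromosome, Mki67 and Top2a were called higher at every time of treatment. Mki67, the antigen used to count dividing cells in tissue, had signals of 115, 105 and 99.7 in normal liver, 341, 315 and 334 after 5 weeks, 460, 406 and 431 after 8 weeks, 485, 455 and 439 after 12 weeks, 784, 723 and 708 after 16 weeks and 526, 520 and 472 after 18 weeks. Every treated array lay above every normal array, and the 16-week arrays lay above those of every other group. Its log2 changes were 1.50, 1.87, 1.96, 2.62 and 2.09 from 5 to 18 weeks (SE 0.0669, adjusted p at most 2.12e-10 in limma). Top2a, the topoisomerase that untangles sister chromatids, had signals of 156, 125 and 123 in normal liver, 600, 594 and 598 after 5 weeks, 443, 440 and 473 after 8 weeks, 497, 583 and 437 after 12 weeks, 700, 708 and 598 after 16 weeks and 514, 567 and 717 after 18 weeks. Its 5-week arrays already lay above its 8-week arrays, with log2 changes of 2.03, 1.64, 1.79, 2.19 and 2.02 (SE 0.122). In a fainter Top2a probe set the arrays of these 2 times overlapped, and the changes were 2.13, 2.02, 2.34, 2.96 and 2.48 (SE 0.155).

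The 6 cyclin, CDK1 and partner genes held the largest and the smallest change among the mitosis genes. Ccna2 encodes cyclin A, which acts in both S phase and mitosis. Its signals were 67, 56.1 and 62.9 in normal liver, 339, 296 and 248 after 5 weeks, 374, 298 and 358 after 8 weeks, 672, 563 and 542 after 12 weeks, 624, 690 and 591 after 16 weeks and 624, 639 and 487 after 18 weeks, and its log2 changes 1.98, 2.20, 2.96, 3.06 and 2.93 (SE 0.129) started from a level below the filter in normal liver. Every array from 12 weeks on lay above every array at 5 and 8 weeks. Cdk1 had signals of 128, 136 and 86.8 in normal liver, 459, 501 and 440 after 5 weeks, 461, 480 and 444 after 8 weeks, 730, 621 and 738 after 12 weeks, 746, 689 and 782 after 16 weeks and 683, 744 and 693 after 18 weeks. The 5- and 8-week arrays overlapped each other, and the later groups lay above both, with log2 changes of 1.88, 1.86, 2.44, 2.52 and 2.46 (SE 0.117, adjusted p at most 8.35e-09).

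Ccnb1, the B-type cyclin that activates CDK1, had signals of 216, 192 and 159 in normal liver, 397, 295 and 376 after 5 weeks, 415, 425 and 456 after 8 weeks, 716, 595 and 669 after 12 weeks, 626, 602 and 607 after 16 weeks and 594, 662 and 615 after 18 weeks. Its change of 0.86 at 5 weeks stayed under 2-fold, and from 8 weeks on it was called at 1.14, 1.73, 1.62 and 1.65 (SE 0.111). A further Ccnb1 probe set gave 1.28 at 5 weeks. Ccnb2, a second B-type cyclin, was called at 8, 12 and 16 weeks with changes of 1.39, 1.49 and 1.41 and fell short of 2-fold at 5 and 18 weeks (0.74 and 0.86, SE 0.0992). Cdkn3, a phosphatase that acts on CDKs, was called at every time, and its signal was highest at 8 weeks, where it averaged 878 ± 10.6 against 176 ± 14.4 in normal liver. Cks2, a small CDK-binding subunit, had the highest normal signal of the 6. Its arrays read 874, 947 and 838 in normal liver, 1110, 1120 and 1100 after 5 weeks, 1170, 1090 and 1070 after 8 weeks, 1510, 1630 and 1410 after 12 weeks, 1640, 1630 and 1630 after 16 weeks and 1660, 1750 and 1650 after 18 weeks. All treated arrays lay above all normal arrays, yet its changes of 0.32, 0.32, 0.76, 0.87 and 0.92 (SE 0.058) never reached 2-fold.

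All 6 tested mitotic kinases were called higher from 12 weeks on. Pbk, a kinase active in mitosis, had normal signals near the pseudocount, with arrays of 25.3, 16 and 25.1 in normal liver, 124, 198 and 200 after 5 weeks, 125, 173 and 194 after 8 weeks, 159, 247 and 215 after 12 weeks, 253, 255 and 261 after 16 weeks and 218, 193 and 203 after 18 weeks. Its log2 changes were 2.30, 2.23, 2.54, 2.85 and 2.54 (SE 0.186). Melk, another mitotic kinase, read 50.7, 63.7 and 8.78 in normal liver, 84.2, 137 and 90.2 after 5 weeks, 167, 186 and 200 after 8 weeks, 216, 232 and 260 after 12 weeks, 273, 304 and 204 after 16 weeks and 308, 213 and 232 after 18 weeks. Its changes of 1.21, 1.97, 2.30, 2.42 and 2.38 came with a wide SE of 0.325, since the normal arrays ran between 8.78 and 63.7, and at 5 weeks the call was lost without the third normal array (0.69).

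Aurkb, the kinase of the chromosomal passenger complex, had signals of 113, 99.8 and 130 in normal liver, 285, 279 and 174 after 5 weeks, 284, 288 and 242 after 8 weeks, 337, 392 and 300 after 12 weeks, 378, 404 and 426 after 16 weeks and 395, 360 and 342 after 18 weeks. Treated and normal arrays did not overlap, and the change of 0.98 at 5 weeks stopped just short of 2-fold, followed by 1.14, 1.46, 1.69 and 1.55 (SE 0.153). At 5 weeks it was called when the third normal array (1.07) or the third 5-week array (1.20) was left out. Plk1, which drives spindle assembly and mitotic exit, changed least of the kinases. Its signals of 116, 126 and 88.4 in normal liver, 191, 128 and 212 after 5 weeks, 180, 231 and 172 after 8 weeks, 225, 237 and 324 after 12 weeks, 342, 345 and 311 after 16 weeks and 215, 242 and 252 after 18 weeks gave changes of 0.60, 0.74, 1.14, 1.48 and 1.01 (SE 0.174), called at 12, 16 and 18 weeks. At 18 weeks its call was lost without the third normal array or without the second or the third 18-week array (0.88 to 0.99), and at 12 weeks without the third 12-week array (0.98). Aurka, the centrosomal Aurora kinase, and Bub1, of the spindle checkpoint, were called at every time, at 1.35 to 2.14 and 1.25 to 1.84.

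The 2 checkpoint kinases below the filter were read from the unfiltered fit as values only. Ttk had mean signals of 105 to 131 in treated liver and 9.94 ± 5.18 in normal liver, with log2 changes of 2.43, 2.24, 2.34, 2.51 and 2.50 (SE 0.167). A fainter Ttk probe set gave 0.29, 0.25, 1.23, 1.50 and 1.42 (SE 0.36). Bub1b averaged 84.3 to 135 in treated liver and 38.4 ± 20.6 in normal liver, with changes of 0.89, 1.16, 0.98, 1.55 and 1.39 (SE 0.347).

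Among the kinesins and spindle proteins, the Kif2c probe set above the filter changed most at every time but 16 weeks, when Kif23 did. This kinesin takes microtubules apart at the centromere. Its signals were 14, 15.5 and 16.2 in normal liver, 139, 146 and 122 after 5 weeks, 177, 205 and 185 after 8 weeks, 225, 205 and 212 after 12 weeks, 173, 209 and 193 after 16 weeks and 183, 137 and 157 after 18 weeks. Normal arrays were near the pseudocount, and the changes of 2.28, 2.71, 2.88, 2.73 and 2.48 (SE 0.0938, adjusted p at most 9.8e-11) understate the ratio of signals. The other Kif2c probe set, below the filter, averaged 43.2 in normal liver and changed less, by 0.45, 1.01, 1.43, 1.31 and 1.48 (SE 0.516). Kif23, a midzone kinesin needed for cytokinesis, had signals of 72.3, 73.3 and 5.5 in normal liver, 173, 131 and 161 after 5 weeks, 236, 213 and 225 after 8 weeks, 231, 234 and 196 after 12 weeks, 316, 370 and 453 after 16 weeks and 199, 238 and 268 after 18 weeks. One normal array at 5.5 widened the SE to 0.384 around changes of 1.62, 2.12, 2.09, 2.82 and 2.17, and without that array the change at 5 weeks was 0.94 and no longer called. Kif11, the motor that pushes spindle poles apart, changed least. It read 127, 122 and 99.7 in normal liver, 237, 250 and 268 after 5 weeks, 242, 235 and 253 after 8 weeks, 250, 258 and 268 after 12 weeks, 289, 274 and 320 after 16 weeks and 248, 253 and 271 after 18 weeks. Groups did not overlap with normal liver, and the changes of 1.02, 0.98, 1.06, 1.24 and 1.06 (SE 0.0782) lay at the 2-fold threshold. Its calls at 5, 12 and 18 weeks were lost without the third normal array (0.93 to 0.98), as was that at 5 weeks without the third 5-week array, and the change at 8 weeks was called without the first or second normal array or the second 8-week array (1.0 to 1.04). A second Kif11 probe set changed by 0.45 to 0.92. Kif20a, Prc1 and Nusap1, which build the spindle and its midzone, were called at every time apart from Kif20a at 5 weeks (0.76), with maxima of 1.60, 2.17 and 1.74 at 16 weeks.

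Of the 6 genes for the passenger complex, cytokinesis and the APC/C, 5, 5, 6, 6 and 6 were called higher from 5 to 18 weeks. Ect2, which activates RhoA at the cleavage furrow, had signals of 90.8, 76.6 and 99.1 in normal liver, 363, 338 and 315 after 5 weeks, 503, 518 and 498 after 8 weeks, 535, 501 and 519 after 12 weeks, 626, 649 and 618 after 16 weeks and 530, 532 and 587 after 18 weeks. Arrays within a group lay close together, and its changes were 1.76, 2.32, 2.35, 2.63 and 2.44 (SE 0.0729, adjusted p at most 1.03e-10). Its partner Racgap1 had signals of 65.2, 68.5 and 48.6 in normal liver, 211, 236 and 194 after 5 weeks, 256, 270 and 249 after 8 weeks, 297, 365 and 379 after 12 weeks, 451, 452 and 403 after 16 weeks and 425, 311 and 354 after 18 weeks and changes of 1.59, 1.85, 2.24, 2.56 and 2.30 (SE 0.124). A fainter Racgap1 probe set was called at 12, 16 and 18 weeks only, with changes of 0.16 and 0.64 at 5 and 8 weeks.

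Cdc20, whose promoter is shown above, had signals of 132, 112 and 132 in normal liver, 220, 388 and 238 after 5 weeks, 424, 343 and 393 after 8 weeks, 455, 459 and 456 after 12 weeks, 390, 398 and 406 after 16 weeks and 384, 345 and 350 after 18 weeks. The second 5-week array stood apart from the other 2, and the 5-week change of 1.04 was 0.80 without it and 0.97 without the second normal array. At the later times the changes were 1.51, 1.75, 1.55 and 1.41 (SE 0.148). Birc5, the survivin subunit of the passenger complex, changed least of the 6. Its signals were 129, 108 and 124 in normal liver, 200, 205 and 282 after 5 weeks, 280, 235 and 220 after 8 weeks, 343, 357 and 360 after 12 weeks, 285, 320 and 365 after 16 weeks and 277, 283 and 289 after 18 weeks, and it was called from 12 weeks on at 1.44, 1.31 and 1.14 (SE 0.12) after 0.83 and 0.94 at 5 and 8 weeks. Without the third 8-week array the 8-week change was 1.01 and called. Cdca8, another passenger subunit, and Ube2c, the ubiquitin-conjugating partner of the APC/C, were called at every time, at 1.40 to 2.32 and 1.16 to 1.95. Cdca8 was the only mitosis gene whose treated and normal arrays overlapped at a treated time, at 5 weeks.

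**Figure D3:**
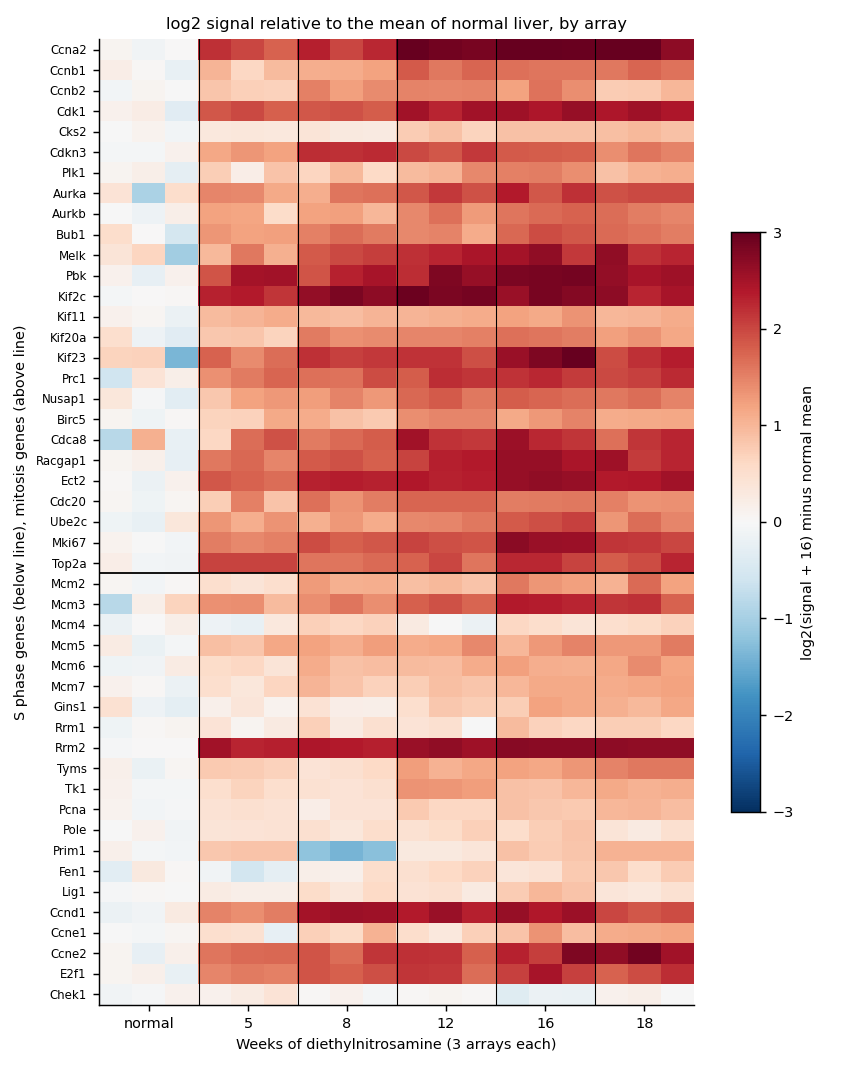
Heat map of log2(signal + 16) minus the mean of normal liver (colour, white at 0, capped at 3) for the 26 mitosis genes and 21 S phase genes tested (rows) on all 18 arrays (columns, 3 per group). Mitosis rows are red at every treated time, while among S phase rows Rrm2, Ccnd1, Ccne2, E2f1 and Mcm3 are the reddest and Prim1 is blue at 8 weeks.

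S phase genes differed by role. The 5 genes of G1/S control held 3 called genes at each of 5, 8 and 12 weeks and 4 at 16 and 18 weeks. Of the 7 origin licensing genes 1, 3, 2, 6 and 6 were called, of the 4 for deoxynucleotide synthesis 1, 1, 3, 2 and 3, and of the 5 replication fork enzymes only Prim1 was called, lower at 8 weeks and higher at 18 weeks, by the probe set that stood for each gene. The 5 fork enzymes had median changes of 0.41, 0.34, 0.57, 0.83 and 0.70, and an adjusted p under 0.05 in limma at 4, 4, 5, 5 and 5 of them. At that cutoff, with no fold threshold, 3010, 3955, 4356, 4526 and 4099 of all 10451 genes were higher. A further 2284, 2272, 2546, 2656 and 2554 were lower, so 5 genes are few to set against this background.

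Ccnd1 encodes cyclin D1, the growth factor-responsive partner of CDK4 and CDK6. Its signals were 514, 541 and 709 in normal liver, 1650, 1560 and 1730 after 5 weeks, 3340, 3540 and 3480 after 8 weeks, 3110, 3580 and 2990 after 12 weeks, 3630, 3150 and 3520 after 16 weeks and 2390, 2160 and 2320 after 18 weeks. The groups from 8 to 16 weeks overlapped each other, and the 5- and 18-week groups lay between them and normal liver. The log2 changes were 1.47, 2.54, 2.43, 2.53 and 1.95 (SE 0.103, adjusted p at most 2.81e-08). Both other Ccnd1 probe sets above the filter changed in the same direction, by 0.77 to 2.46 and 1.04 to 2.25. E2f1, the activating E2F factor, had signals of 39.8, 42.5 and 29 in normal liver, 130, 139 and 134 after 5 weeks, 178, 168 and 185 after 8 weeks, 216, 214 and 153 after 12 weeks, 202, 278 and 202 after 16 weeks and 165, 190 and 230 after 18 weeks. Normal arrays were below the filter, and the changes were 1.51, 1.87, 1.98, 2.19 and 1.99 (SE 0.15).

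Ccne2 encodes one of the E-type cyclins that activate CDK2 at the start of S phase. It had signals of 51.1, 37.2 and 54.1 in normal liver, 175, 190 and 191 after 5 weeks, 216, 186 and 261 after 8 weeks, 273, 265 and 204 after 12 weeks, 295, 250 and 420 after 16 weeks and 381, 454 and 346 after 18 weeks, and its changes of 1.67, 1.90, 2.05, 2.39 and 2.69 (SE 0.176) ended with the highest mean at 18 weeks. Its relative Ccne1 had signals of 103, 99.5 and 109 in normal liver, 153, 148 and 84.6 after 5 weeks, 181, 162 and 229 after 8 weeks, 156, 133 and 180 after 12 weeks, 201, 288 and 212 after 16 weeks and 244, 246 and 256 after 18 weeks. One 5-week array lay below all normal arrays, and the changes of 0.24, 0.78, 0.52, 1.05 and 1.14 (SE 0.183) were called at 16 and 18 weeks, the call at 16 weeks being lost without the second 16-week array (0.90). Chek1, the kinase that restrains the cycle when replication is impaired, was not called at any time. It read 482, 507 and 564 in normal liver, 567, 615 and 687 after 5 weeks, 531, 569 and 499 after 8 weeks, 528, 544 and 531 after 12 weeks, 399, 454 and 446 after 16 weeks and 563, 589 and 508 after 18 weeks. Its 16-week arrays lay below every normal array, as those of 26.7% of all genes did, with changes of 0.26, 0.04, 0.05, -0.25 and 0.09 (SE 0.0819), and the small positive values at 8, 12 and 18 weeks were below 0 with median centring and with quantile normalization.

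Among the origin genes, Mcm3 changed most. Its signals were 29.9, 76 and 114 in normal liver, 195, 200 and 143 after 5 weeks, 198, 234 and 198 after 8 weeks, 267, 290 and 257 after 12 weeks, 408, 404 and 384 after 16 weeks and 348, 361 and 265 after 18 weeks. The normal arrays were widely spread, and the changes of 1.24, 1.46, 1.81, 2.34 and 2.05 carried an SE of 0.263, with the 5-week call lost without the first normal array (0.83). Mcm5 had signals of 193, 138 and 152 in normal liver, 313, 299 and 379 after 5 weeks, 387, 357 and 400 after 8 weeks, 364, 375 and 462 after 12 weeks, 333, 413 and 480 after 16 weeks and 414, 419 and 497 after 18 weeks. Its changes of 0.98, 1.18, 1.24, 1.26 and 1.39 (SE 0.143) were nearly flat from 8 weeks on, and at 5 weeks it was called without the first normal, first 5-week or second 5-week array (1.01 to 1.10). Mcm2 read 191, 170 and 186 in normal liver, 266, 243 and 264 after 5 weeks, 461, 396 and 406 after 8 weeks, 354, 372 and 341 after 12 weeks, 574, 482 and 448 after 16 weeks and 393, 624 and 442 after 18 weeks. It was called at 8, 16 and 18 weeks, with changes of 0.47, 1.14, 0.91, 1.38 and 1.31 (SE 0.131), and its second 18-week array stood above the other 2.

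Mcm4 did not pass the fold threshold at any time. Its signals were 248, 283 and 320 in normal liver, 253, 241 and 357 after 5 weeks, 475, 439 and 462 after 8 weeks, 341, 279 and 248 after 12 weeks, 446, 412 and 375 after 16 weeks and 404, 426 and 462 after 18 weeks. Groups at 5 and 12 weeks overlapped normal liver while those at 8, 16 and 18 weeks lay above it, with changes of -0.01, 0.67, 0.02, 0.51 and 0.58 (SE 0.138). Its value at 12 weeks was -0.36 with median centring and -0.27 with quantile normalization. Mcm6, Mcm7 and Gins1, a subunit of the GINS complex that completes the active helicase, were called only at 16 and 18 weeks, at 1.12 and 1.25, 1.09 and 1.16, and 1.02 and 1.07. The MCM genes encode subunits of a single ring-shaped complex, and their changes at 12 weeks ran from 0.02 for Mcm4 to 1.81 for Mcm3.

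Deoxynucleotide supply held the S phase gene with the largest mean change. Rrm2, the regulated subunit of ribonucleotide reductase, had signals of 356, 367 and 370 in normal liver, 2180, 1850 and 1900 after 5 weeks, 2030, 1970 and 1900 after 8 weeks, 2280, 2400 and 2200 after 12 weeks, 2520, 2460 and 2450 after 16 weeks and 2430, 2380 and 2400 after 18 weeks. All 15 treated arrays read 1850 or more and the 3 normal arrays 370 or less, with changes of 2.39, 2.38, 2.60, 2.71 and 2.67 (SE 0.0573, adjusted p at most 2.84e-13). A fainter Rrm2 probe set changed by 0.94, 0.51, 1.86, 1.29 and 1.68. Rrm1, the other subunit of the same enzyme, read 320, 364 and 377 in normal liver, 478, 375 and 432 after 5 weeks, 586, 426 and 495 after 8 weeks, 474, 495 and 350 after 12 weeks, 701, 581 and 555 after 16 weeks and 595, 598 and 553 after 18 weeks. It overlapped normal liver at 5 and 12 weeks, and its changes of 0.26, 0.48, 0.29, 0.76 and 0.70 (SE 0.139) never reached 2-fold. At 12 weeks its value was -0.09 with median centring.

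Tyms, which makes thymidylate, had signals of 154, 118 and 143 in normal liver, 250, 245 and 231 after 5 weeks, 188, 200 and 216 after 8 weeks, 349, 298 and 330 after 12 weeks, 337, 328 and 371 after 16 weeks and 414, 447 and 443 after 18 weeks. Its changes were 0.75, 0.50, 1.15, 1.23 and 1.55 (SE 0.0856), called from 12 weeks on and largest at 18 weeks. Tk1, the salvage enzyme thymidine kinase, was highest at 12 weeks, where it averaged 1000 ± 34.6 against 397 ± 30.7 in normal liver, and it was called at 12 and 18 weeks (1.30 and 1.09, SE 0.0629). A fainter Tk1 probe set reached 0.99 at most.

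At the replication fork, Pcna is the sliding clamp that holds polymerases on DNA and also serves repair. It read 2070, 1800 and 1870 in normal liver, 2600, 2670 and 2600 after 5 weeks, 2190, 2530 and 2550 after 8 weeks, 3280, 2940 and 2930 after 12 weeks, 3540, 3370 and 3320 after 16 weeks and 3800, 3910 and 3670 after 18 weeks. Every treated array lay above every normal array, yet the changes of 0.46, 0.34, 0.67, 0.83 and 0.98 (SE 0.0686) stayed under 2-fold. At 18 weeks it was called without the first normal array or the third 18-week array (1.01 to 1.04). Pole, the catalytic subunit of the leading strand polymerase, had signals of 135, 150 and 125 in normal liver, 184, 187 and 189 after 5 weeks, 196, 177 and 205 after 8 weeks, 193, 206 and 234 after 12 weeks, 205, 238 and 260 after 16 weeks and 184, 167 and 195 after 18 weeks and changes of 0.41, 0.45, 0.57, 0.71 and 0.38 (SE 0.0922). Lig1 and Fen1, which join and trim Okazaki fragments, were not called, with changes of 0.20 to 0.88 for Lig1 and -0.30 to 0.70 for Fen1. A fainter Lig1 probe set above the filter differed, being called at 16 weeks (1.01, SE 0.167), with changes of 0.08 to 0.91 at the other times.

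Prim1, the primase subunit that makes the RNA primers, followed a course of its own among the members. Its signals were 738, 631 and 623 in normal liver, 1180, 1220 and 1210 after 5 weeks, 278, 240 and 269 after 8 weeks, 811, 819 and 856 after 12 weeks, 1240, 1140 and 1200 after 16 weeks and 1380, 1390 and 1370 after 18 weeks. At 8 weeks all 3 arrays lay below all normal arrays, while at every other treated time all 3 lay above them. The changes against normal liver were 0.85, -1.29, 0.32, 0.83 and 1.04 (SE 0.0655), called lower at 8 weeks (adjusted p = 5.47e-10 in limma) and higher at 18 weeks (adjusted p = 2.51e-09). Without the third normal array the 18-week change was 1.0 and not called. The gene has 1 probe set on the array, and 56 of 10451 genes (0.536%) were likewise called lower at 8 than at 5 weeks and higher at 12 than at 8 weeks. The 8-week arrays had the highest Gapdh 3'/5' ratio, given above, and the highest beta-actin 3'/5' ratio, 4.48 ± 0.203 against 2.36 ± 0.305 in normal liver (SD, n = 3). The part of this in the Prim1 values was not tested.

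**Figure D4:**
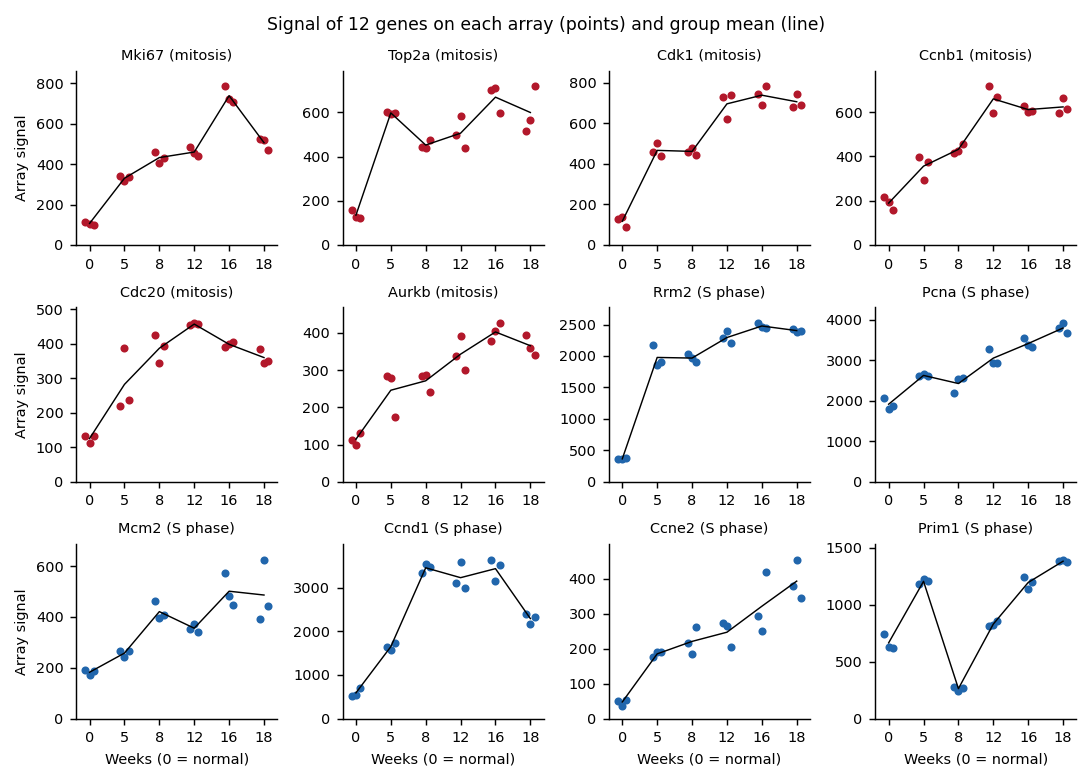
Array signal (y axis, linear, from 0) of 12 members on each of the 18 arrays (points) by weeks of diethylnitrosamine (x axis, 0 for normal liver, evenly spaced), with the group mean (line), mitosis genes in red and S phase genes in blue. Mki67 peaks at 16 weeks at 708 to 784, Rrm2 is at 1850 or more on every treated array, and Prim1 drops to 240 to 278 at 8 weeks.

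Between successive times the mitosis genes moved little. None of the 26 was called at any of the 4 steps in limma, while 10, 10, 8 and 9 had an unadjusted p under 0.05 at the steps of 8 over 5, 12 over 8, 16 over 12 and 18 over 16 weeks. At an adjusted p under 0.05 with no fold threshold the counts were 8, 8, 4 and 7. Of all 10451 genes 2297, 2711, 1503 and 2110 were higher at that cutoff. A further 1474, 2573, 1394 and 1920 were lower, so the mitosis counts taken over both directions did not stand above the background. Among all genes 1.1%, 4.55%, 0.909% and 0.22% were called higher at these steps and 1.02%, 1.86%, 0.517% and 1.32% lower. Cdkn3 came closest at the first step, with a change of 0.99 (SE 0.0737, adjusted p = 1.39e-07). Over all 47 members 1 was called higher at that step, and 2 were without the second 5-week or the second 8-week array. All 3 arrays of the later time lay above those of the earlier for 11, 13, 10 and 1 of the 26 mitosis genes. The shares of all genes were 29.9%, 31.3%, 23.2% and 26.4%. They lay below for 1, 2, 2 and 12 mitosis genes, against 18.8%, 28.4%, 20.7% and 26% of all genes. Ccna2 changed by 0.76 at 12 over 8 weeks (adjusted p = 0.000185) and Mki67 by 0.67 at 16 over 12 weeks (adjusted p = 4.18e-06), both under 2-fold.

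Among the S phase genes Prim1 was called lower at 8 over 5 weeks (-2.14, adjusted p = 1.15e-11) and higher at 12 over 8 weeks (1.61, adjusted p = 6.88e-11). Ccnd1 was called higher at 8 over 5 weeks (1.07, SE 0.103, adjusted p = 2.21e-06). At the 2 later steps limma called 0 of the 21, with 10 and 8 at an unadjusted p under 0.05. At an adjusted p under 0.05 there were 8 and 7, beside the counts of all genes given above.

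Between 16 and 18 weeks the mitosis and S phase genes differed in direction as deposited. The median change at 18 over 16 weeks was -0.19 for the mitosis genes, with 24 of 26 below 0, and 0.07 for the S phase genes, with 13 of 21 above 0. The median of all genes was -0.02. Of the mitosis genes 9 had an unadjusted p under 0.05 and all 9 were lower at 18 weeks, while of the S phase genes 5 were higher and 3 lower. Of all 10451 genes 2110 were higher and 1920 lower at the stricter cutoff of an adjusted p under 0.05 with no fold threshold. At that cutoff 7 of the 26 mitosis genes passed, all of them lower, and 7 of the 21 S phase genes. All 3 arrays at 18 weeks lay below those at 16 weeks for 12 mitosis and 5 S phase genes, against 26% of all genes. They lay above for 1 mitosis and 5 S phase genes, against 26.4% of all genes. Mki67 changed by -0.53 (adjusted p = 3.26e-05), Ccnb2 by -0.55 (adjusted p = 0.000592) and Ube2c by -0.46 (adjusted p = 0.0125). Tyms changed by 0.32 (adjusted p = 0.00886) and Chek1 by 0.34 (adjusted p = 0.00439), while Ccnd1 changed by -0.58 (adjusted p = 0.000544). None of these steps reached 2-fold.

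The direction of this step depended on the scaling, while the gap between the gene groups was similar under each. With median centring the medians at 18 over 16 weeks were 0.09 for mitosis and 0.35 for S phase genes, and with quantile normalization -0.03 and 0.21. The median of all genes under these settings was 0.26 and 0.05. On each array the mean log2 signal of the mitosis genes minus that of the S phase genes is nearly free of the scaling. It was -1.25 to -0.96 in normal liver, -0.50 to -0.39 after 5, -0.37 to -0.25 after 8, -0.24 to -0.19 after 12, -0.31 to -0.23 after 16 and -0.53 to -0.50 after 18 weeks. The 18-week arrays thus lay below those of 8, 12 and 16 weeks and the 16-week arrays overlapped those of 8 and 12 weeks. Signals of different genes share no absolute scale, so only the change of this difference between groups can be read.

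**Figure D5:**
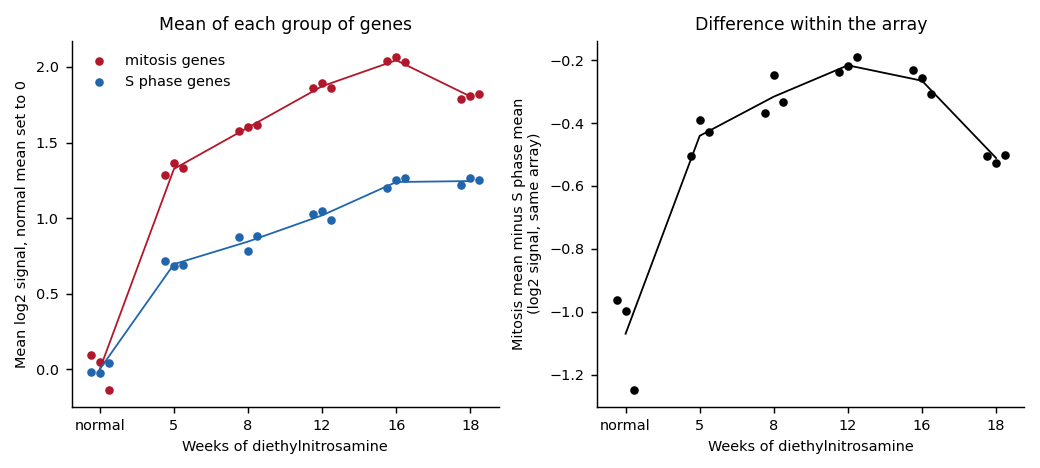
Left, mean log2(signal + 16) of the mitosis genes and of the S phase genes on each array (points) and group means (lines), with normal liver set to 0, by weeks of diethylnitrosamine. Right, mitosis mean minus S phase mean on each array (y axis does not start at 0), between -0.24 and -0.19 at 12 weeks and between -0.53 and -0.50 at 18 weeks.

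The week with the highest group mean also differed between the gene groups, though not under every scaling. As deposited, 19 of 26 mitosis genes were highest at 16 weeks, 5 at 12 weeks, 1 at 8 weeks (Cdkn3) and 1 at 18 weeks (Cks2). Of the 21 S phase genes 10 were highest at 18 weeks, 7 at 16 weeks, 1 at 12 weeks (Tk1), 2 at 8 weeks (Mcm4 and Ccnd1) and 1 at 5 weeks (Chek1). Of the 1840 genes called higher at 1 time or more 53.3% were highest at 16 weeks and 17% at 18 weeks. With quantile normalization 9 mitosis genes were highest at 16 weeks and 6 at 18 weeks, and with median centring 5 and 11, while S phase genes highest at 18 weeks numbered 12 and 14.

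The difference between the mitosis and S phase medians against normal liver was 0.75, 0.94, 1.05, 1.0 and 0.66 from 5 to 18 weeks. It stayed above 0 under each alternative run. Leaving out the 5 genes of G1/S control, which include some of the largest changes, gave S phase medians of 0.48, 0.50, 0.75, 0.97 and 1.08.

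The CDK inhibitors, which block the kinases that these cyclins activate, were read from a list of 7 with 6 tested. Cdkn1a, the p53 target p21, averaged 244 ± 61.8 in normal liver, 6680 ± 70.1 after 5, 6090 ± 85.2 after 8, 2980 ± 187 after 12, 4010 ± 130 after 16 and 4860 ± 40.6 after 18 weeks (SD, n = 3). Its log2 changes of 4.72, 4.58, 3.55, 3.98 and 4.26 (SE 0.121) were larger than those of any member. Cdkn2c, the p18 inhibitor of CDK4 and CDK6, was called from 5 to 16 weeks at 1.11, 1.16, 1.14 and 1.23 (SE 0.0868) and had 0.88 at 18 weeks. Cdkn2b, the p15 inhibitor, was called at 12 weeks (1.13, SE 0.175) after -0.07 and -0.12 at 5 and 8 weeks, and it was called at 18 weeks when the second normal array or the first or the third 18-week array was left out (1.01 to 1.06), at 16 weeks without the second normal array (1.03), and not at 12 weeks without normal array number 3 (0.99). Cdkn1b changed by 0.08 to 0.35, Cdkn2d by -0.01 to 0.43 and Cdkn1c by -0.18 to 0.34, and none was called. Under median centring Cdkn1b was below 0 at 5, 12, 16 and 18 weeks and Cdkn2d at 12, 16 and 18 weeks.

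Of 10 tested regulators of the RB, E2F and DREAM system 1, 1, 1, 2 and 1 were called higher from 5 to 18 weeks, against 4.47%, 7.31%, 12.1%, 14.5% and 11% of all genes, so the higher calls stood near the background. They were Mybl2 and Rbl1, while Tfdp2 and Rb1 were called lower. The lower calls numbered 0, 1, 2, 0 and 0, against 1.61%, 3.12%, 4.43%, 5.6% and 4.41% of all genes, few genes to set against those shares. Mybl2, the B-MYB factor of the mitotic wave, changed by 1.10, 1.02, 1.16, 1.51 and 1.51 (SE 0.182), with calls at 5, 8 and 12 weeks that were lost when the third treated array of that time was left out (0.98 to 0.99), and at 8 weeks also without the third normal array (0.99). Rbl1, the p107 pocket protein, was called at 16 weeks (1.38, SE 0.115), and also at 18 weeks without the first normal array (1.08). Rb1, the retinoblastoma protein that holds E2F factors, averaged 274 ± 94.8 at 12 weeks against 549 ± 77.7 in normal liver, a change of -1.0 (SE 0.175) that was not called without the second or the third normal array or the third 12-week array (-0.95 to -0.77). It was called at 16 and 18 weeks without the first normal array (-1.02 and -1.05). Tfdp2, a partner of E2F factors, changed by -1.06 and -1.17 (SE 0.21) at 8 and 12 weeks. These calls were lost without the second normal array, and at 8 weeks without the second 8-week array (-0.93 to -0.80), and it was called at 16 and 18 weeks without the first or the third normal array, among others (-1.11 to -1.01).

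Of 15 other cyclins, CDKs and their regulators 2, 3, 2, 3 and 3 were called higher from 5 to 18 weeks, few genes to set against those percentages. They were Ccng1, Myc, Wee1 and Pkmyt1. Myc, a driver of cell growth and of G1 exit, changed by 1.11, 1.27, 2.30, 2.46 and 2.60 (SE 0.133). Ccng1, a p53 target, was called at every time but 12 weeks, at 1.14 to 1.50, with 0.93 there. Wee1, a kinase that inhibits CDK1, was called from 12 weeks on at 1.46 to 1.56. Its relative Pkmyt1 was called at 8 weeks (1.91) with an SE of 0.617, and that call was lost without the first or second normal array or the second 8-week array (1.61 to 1.74). Without the third normal array it was called at 12 and 18 weeks, and at 12 weeks also without the second 12-week array (1.72 to 1.81).

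The further mitosis and replication genes, taken from lists outside the 52, also differed from each other in their counts. Of 35 further mitosis genes tested 14, 21, 22, 29 and 22 were called higher from 5 to 18 weeks, with medians of 0.88, 1.09, 1.16, 1.46 and 1.12. Of 35 further replication genes 3, 3, 7, 9 and 6 were called higher, with medians of 0.20, 0.48, 0.44, 0.67 and 0.58, against 4.47%, 7.31%, 12.1%, 14.5% and 11% of all genes, so that at 8 weeks the replication count was near the background. Of these lists 10 mitosis and 6 replication genes lay below 87.5 in normal liver and passed through the treated groups. Among the other 25 mitosis genes 8, 12, 14, 19 and 13 were called higher, with medians of 0.73, 0.82, 1.12, 1.32 and 1.0. Among the other 29 replication genes 0, 1, 1, 3 and 2 were called higher, with medians of 0.10, 0.34, 0.40, 0.63 and 0.44. The shares of all genes given above were not limited to genes above 87.5 in normal liver, so these counts cannot be set against them. Several genes named next were below the filter in normal liver, with mean signals of 24.2 for Ckap2, 20.0 for Cdca2, 51.3 for Kif22, 17.7 for Asf1b, 59.5 for Gmnn and 61.3 for Pole2, so their changes depend on the pseudocount. Ckap2, a spindle-associated protein, changed by 3.01, 3.23, 3.71, 3.91 and 3.71 (SE 0.196), and Kif22, Cdca2 and Cdca3 had 16-week changes of 2.64, 2.79 and 2.54. Of the replication list Asf1b, a histone chaperone, reached 2.50 at 12 weeks and Gmnn, geminin, the inhibitor of relicensing, 2.32 at 16 weeks. Rnaseh2a and Pole2 reached 1.43 and 1.45 at 18 weeks, Pole2 with calls that were lost at 12 weeks without the first normal array (0.82) and at 5 weeks without that array or the first or the third 5-week array (0.61 to 0.96). At 8 weeks Pole2 was called without the third normal array (1.17).

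Over the 6 group means, genes outside the list whose log2 signal ran most like that of Mki67, among 2735 genes called at 1 time or more, included Npff (r = 0.999), Fam83h (0.995), Col4a2 (0.994) and Myo1c (0.994). These correlations rest on 6 means from the same arrays and are given as a description. Col4a2, a basement membrane collagen, had mean signals of 193 on normal arrays, then 723, 918, 1160, 1690 and 1020 over the treated times, beside 107, 330, 432, 460, 738 and 506 for Mki67. Npff had mean signals of 236 at 16 weeks and 75.6 in normal liver, and Fam83h had 310 at 16 weeks and 64.1 in normal liver, both below the filter in normal liver.

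The authors' deposited table of log2 ratios, with 9 pairs of arrays per time, gave like counts for the same probe sets. In the authors' deposited table the median ratio was 1 or more for 17, 23, 24, 25 and 24 of the 26 mitosis genes and for 5, 5, 9, 11 and 14 of the 21 S phase genes from 5 to 18 weeks, and -1 or less for Prim1 at 8 weeks (-1.4). These ratios come from the same arrays and are not independent evidence.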

How the data were processed

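The authors deposited Affymetrix array signals, an intensity on a linear scale scaled in GCOS 2.0 per the submitters' processing notes, and a table of log2 ratios between pairs of arrays. The scaling target is not stated in the sources used here. From the signals, log2(signal + 16) was fitted with limma 3.58.1 (R 4.3.3), with all 18 arrays in 6 groups in 1 fit, two-sided tests and Benjamini-Hochberg adjustment over 10451 genes. The filter kept 18625 of 31042 probe sets, those over the 40th percentile of mean log2 signal, and the one with the highest mean stood for each gene. A gene was called at an adjusted p under 0.05 and a 2-fold change. The number of arrays limits the precision.

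Symbols were updated through RefSeq tables. Names were left as deposited where no match was found. The normal columns of a deposited workbook did not match the value table and were not used.

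The members, the other gene lists and the marker lists were chosen with earlier results of these data known. Per-array values are given for the main proliferation genes and, in each role, for the 2 genes with the largest and the 1 with the smallest mean change. Of the other lists, the CDK inhibitors, up to 4 called genes with the largest mean change and every called gene that fell are named, and of the 5 genes most like Mki67 by correlation all but 1, which is not reported here. Further genes named in passing were chosen after their values were seen.

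Tested on simulated data of 10451 genes, the fit recovered 98 of 100 genes changed by 1.5 and 100 of 100 changed by 2.5 (log2) for 5 weeks over normal liver, and 96 and 99 of 100 for 8 over 5 weeks. The simulated spread was that between these arrays. Changes near the 2-fold threshold, where many calls here were decided, were not simulated, so their recovery is not known. Alternatives were other scalings, pseudocounts, filters, fold thresholds, probe set rules, variance models, a replicate block and leaving out each array. The settings for the other cell cycle genes, the authors' log2 ratios, the values of members below the filter and the counts of further genes above it in normal liver were added after seeing the data.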

Additional observations from a re-analysis of the deposited data

Results flagged for a closer look

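7 steps between successive times passed the test of the step itself in limma with at least a 2-fold change. They came from the 47 members tested, 6 CDK inhibitors, 10 RB, E2F and DREAM regulators and 15 other cyclins and CDKs. Among all genes 1.1% were called higher and 1.02% lower at 8 over 5 weeks. At 12 over 8 weeks 4.55% were called higher and 1.86% lower, so these are few genes to set against the background. Outside these lists, 1 further mitosis gene was called higher at 12 over 8 weeks (1.3). Prim1 was lower at 8 over 5 weeks (-2.14) and higher at 12 over 8 weeks (1.61), and its 3 arrays at 8 weeks did not overlap those at either neighbouring time. Ccnd1 was higher at 8 over 5 weeks (1.07). At 12 over 8 weeks Cdkn1a was lower (-1.03) and Rb1 was lower (-1.43), while Cdkn2b (1.25) and Myc (1.03) were higher. The Cdkn1a step was -0.98 without the first 12-week array, and the Myc step was 0.89 to 0.94 without the third 8-week or the first 12-week array. The 8-week arrays, which enter all 7 steps, had Gapdh 3'/5' ratios of 2.12 ± 0.0521 (SD, n = 3), and the part of this in the steps was not tested.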

How the results depend on the processing

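Of 911 recomputed counts and differences for 34 results, 830 stayed the same. A count was taken as the same within 1.5 times. A difference was taken as the same when it moved by less than 0.075, the SD within groups of the mitosis mean minus the S phase mean. Of 8486 recomputed values for 277 single gene results 8119 kept their call and sign. Another 217 lost and 113 gained a call, and 37, none of them called, changed sign. Series of 5 values run from 5 to 18 weeks. With the filter at the 60th percentile, fewer genes being tested, mitosis genes called higher numbered 11 at 5 weeks, 16 at 12, 16 at 16 and 15 at 18 weeks, S phase genes 2, 4, 5, 7 and 9, other cell cycle genes 12, 16, 18, 23 and 17, and the difference of medians was 0.88, 0.81 and 0.45 at 12, 16 and 18 weeks and 0.76 on average. With a 3-fold threshold the mitosis counts were 8 at 5, 13 at 8 and 15 at 18 weeks, the S phase counts 2, 4, 5, 5 and 5, the other cell cycle genes 8, 13, 13, 20 and 13, members called lower at 8 weeks 0 and higher at 8 over 5 weeks 0. With no fold threshold the S phase counts were 16, 17, 18 and 20 at 5 to 16 weeks, the other cell cycle genes 57, 63, 75, 79 and 69, members called lower at 16 weeks 1, members higher at the 4 steps 15, 12, 10 and 4 and lower 3, 2, 2 and 10. With median centring the S phase counts were 5, 5 and 9 at 12, 16 and 18 weeks and the other cell cycle genes 17 and 24 at 12 and 16 weeks. With quantile normalization they were 7 S phase genes at 16 weeks, 20 and 29 other genes at 12 and 16 weeks, and a difference of 0.90 at 12 weeks. A pseudocount of 1 gave 2 members higher at 8 over 5 weeks and differences of 1.0, 1.05, 1.14 and 0.77 at 5, 8, 12 and 18 weeks and 1.0 on average. A pseudocount of 64 gave 12 mitosis, 3 S phase and 11 other genes at 5 weeks, 23 other genes at 12 weeks, and differences of 0.49, 0.64, 0.70, 0.75 and 0.37, with 0.59 on average. Without the genes of G1/S control the difference was 1.12 at 8 weeks, 1.08 at 16 weeks and 0.96 on average. Leaving out 1 array gave 1 to 2 members higher at 8 over 5 weeks. Apart from the filter, the fold threshold and the genes left out, the cause was not tested.

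The share of higher genes among all calls was 73.5%, 70.1%, 73.2%, 72.1% and 71.4% as deposited and 61.2%, 59.7%, 40%, 36.7% and 55% with median centring. With median centring the values below 0 for positive changes were Mcm4 -0.36, Rrm1 -0.09, Prim1 -0.06, Chek1 -0.33, Cdkn1b -0.03 and Cdkn2d -0.36 at 12 weeks, Chek1 -0.07 at 8 weeks, Cdkn1b -0.02 at 5 weeks, Cdkn1b -0.14 and Cdkn2d -0.04 at 16 weeks, and Chek1 -0.09, Cdkn1b -0.08 and Cdkn2d -0.16 at 18 weeks. With quantile normalization they were Mcm4 -0.27, Chek1 -0.13 and Cdkn2d -0.28 at 12 weeks, Chek1 -0.06 at 8 weeks, and Chek1 -0.02 and Cdkn2d -0.14 at 18 weeks. With the mean of probe sets Cdkn2d was -0.04 at 18 weeks. Leaving out 1 array gave Mcm4 -0.18 to 0.08 at 5 and -0.10 to 0.12 at 12 weeks, Chek1 -0.01 to 0.10 at 8 weeks, Cdkn1b -0.01 to 0.14 and Cdkn2b -0.21 to 0.08 at 5 weeks, Cdkn1c -0.30 to 0.04 at 16 and -0.33 to 0.04 at 18 weeks, and Cdkn2d -0.09 to 0.09 at 8, -0.06 to 0.12 at 12 and -0.05 to 0.13 at 18 weeks.

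The deviations of arrays with the same replicate number correlated at -0.076 to 0.188 (median 0.0421, 45 pairs), and those with other numbers at -0.211 to 0.167 (median -0.0158, 90 pairs). Since not every same-number pair was above 0.1, the numbers were not taken to pair the arrays, although 9 of 18 arrays correlated best with their own number, where 6 would by chance. With the replicate number as a block 19 mitosis genes were called higher at 5 weeks, as without it, and none of the 277 single gene results changed its call. Over all genes the calls moved slightly, to 761 higher and 325 lower at 8 weeks, against 764 and 326 without the block.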
